A study of Homo sapiens with 12 samples.

Results

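QGP-1 cells are an established human line from a pancreatic neuroendocrine tumor (pNET). The cells studied here carry tet-MUC1shRNA, a doxycycline (DOX)-inducible short hairpin RNA directed against the MUC1 transcript. All 6 QGP-1 libraries of a series of 12 were taken, namely 3 cultures treated with vehicle, which the labels give as DMSO, and 3 given DOX at 500 ng/mL over 7 days. The other 6 libraries come from BON-1 cells, a second pNET line with the same construct and treatments. Both QGP-1 groups carry the construct, so that they differ by DOX alone, and no DOX-treated culture with a control hairpin is among the libraries. Effects of MUC1-C silencing and of DOX itself therefore cannot be told apart here. The labels do not say how many clones the line represents.

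MUC1 encodes a transmembrane mucin whose C-terminal subunit, MUC1-C, signals inside the cell and is known as an oncoprotein in carcinomas. Neuroendocrine cells of the pancreas and gut make peptide hormones as precursors, cut them with convertases, pack them with granins into dense-core granules and release them by regulated exocytosis. The QGP-1 line is known to make hormones of this kind, and SST is the gene of somatostatin, the inhibitory hormone of pancreatic delta cells.

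The target was tested as a check of the labels. MUC1 was at 7.19, 5.81 and 5.65 CPM (counts scaled to library size and by the TMM factors of edgeR) with vehicle and at 0.705, 1.04 and 0.744 with DOX. The groups do not overlap, and the fitted change, DOX against vehicle, was −2.91 on the log2 scale (standard error 0.23). MUC1 shares exonic bases with another annotated gene on the same strand. The labelled cell type was checked by 13 neuroendocrine markers, of which 12 passed the filter on low counts and only NEUROD1 had no count in any library. Their summed level was between 8652 and 9310 CPM with vehicle and between 10031 and 10860 with DOX. Among 6 acinar markers, PRSS1 passed the filter and 2 were at 0 in every library. Of the 6 fibroblast markers, 5 had a mean under 1 CPM, and the sum was at most 3.66 CPM in any library. The sum of 5 leukocyte markers reached at most 2.01 CPM, whereas 3 of 5 ductal markers (KRT19, KRT7 and SOX9) passed the filter, with sums of 192 to 232 CPM with vehicle and 161 to 204 with DOX. A first principal component of log2 CPM, with 50.5% of the variance, separated the groups. The second, with 20.7%, set the library DOX 1 apart from DOX 2 and DOX 3. Without DOX 1, 12 neuroendocrine, 13 TGF-beta and 13 immediate early genes were higher and 49 histone, 70 ribosomal protein and 51 respiratory chain genes were lower, counts close to those with all libraries given below. Some other lists changed. Antigen presentation went from 3 lower and 3 higher to 6 and 2, and the NOTCH pathway from 2 and 9 to 1 and 6. Polycomb complexes went from 2 and 6 to 3 and 4, and BAF and PBAF complexes from 0 and 4 to 1 and 6.

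Genes were called by edgeR's quasi-likelihood test at an adjusted p below 0.05. At this threshold 17.7% of the 15089 genes tested were lower with DOX and 17.3% were higher, and for 46.7% the 3 libraries of one group lay apart from the 3 of the other. On log2(TPM + 1) without centring, limma called 91 genes lower and 9166 genes higher and the median gene shifted by 0.59, so directions below are relative to the bulk of the genes. To find the strongest single genes, called genes without overlap and with mean log2 CPM no lower than 3 were ranked by log2 fold change. The 12 at each end are called the leading genes. They were chosen by these same values, so their levels are a description. The 12 lower genes had log2 fold changes from −2.46 to −1.56, and the 12 higher ones from 1.46 to 2.77. Just outside stood SRP9 at −1.55, a subunit of the signal recognition particle, and SST at 1.46.

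**Figure D1:**
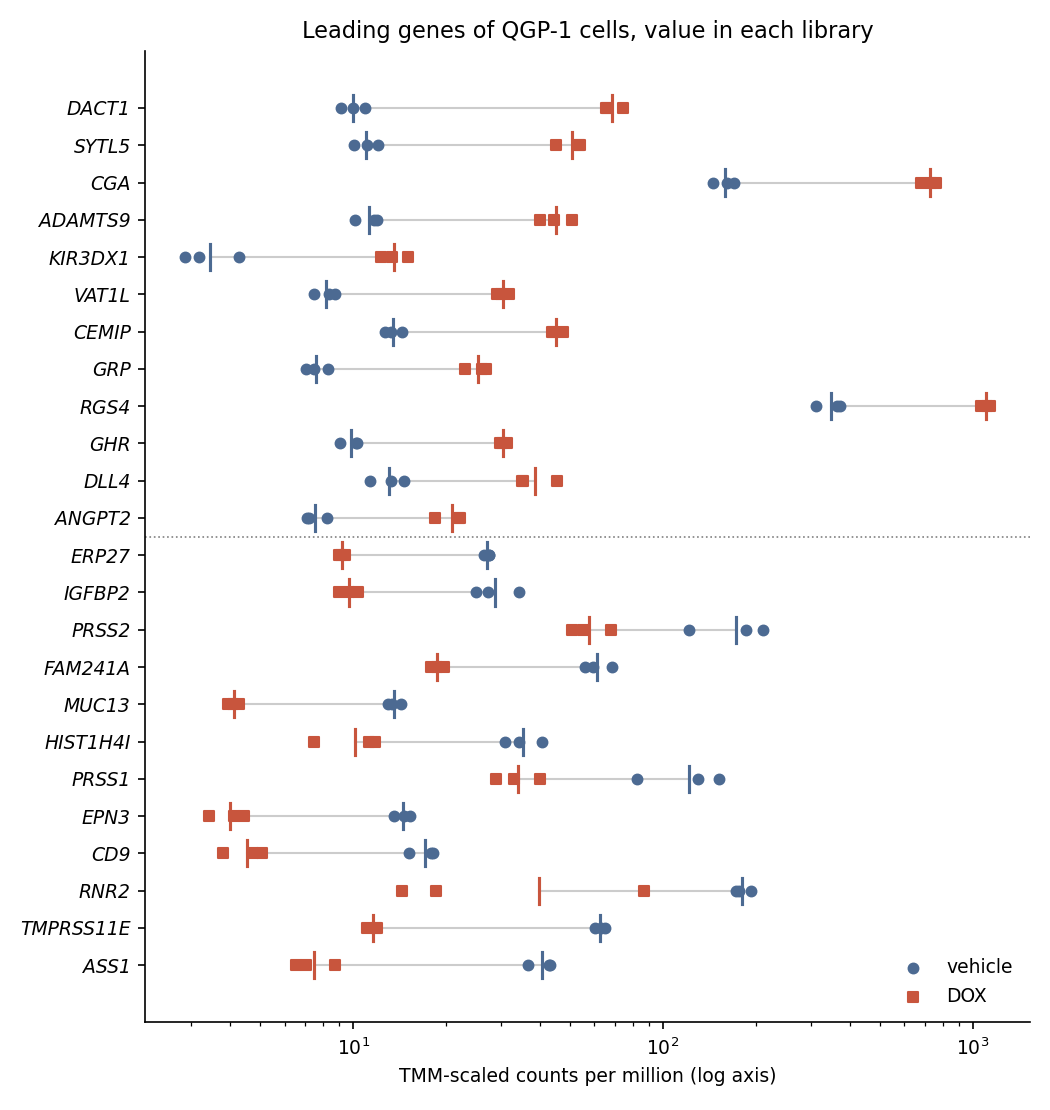
TMM-scaled CPM (log axis) of the 24 leading genes in the 3 vehicle (circles) and 3 DOX (squares) libraries of QGP-1 cells, with a tick at each group mean and a dotted line between the 12 higher and the 12 lower genes. The groups lie apart for each gene because the rule required it, and RNR2 has the widest DOX group, from 14.4 to 86.8.

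Among the leading lower genes, ASS1 and TMPRSS11E fell most. ASS1, which encodes argininosuccinate synthase of the arginine-making arm of the urea cycle (chromosome 9, 130444707 to 130501274), was at 42.8, 36.5 and 43.1 CPM with vehicle and 6.55, 7.02 and 8.76 with DOX. Its level was 5.48-fold lower (adjusted p = 2.27e-08). TMPRSS11E encodes a membrane-bound serine protease. Its values were 60.4, 62.9 and 64.9 CPM with vehicle against 12, 11.8 and 11.1 with DOX, a spread within groups that is small beside the 5.4-fold difference. The trypsinogen genes PRSS1 and PRSS2, digestive proteases of acinar cells, fell as well. PRSS1 was at 129, 82.5 and 151 CPM with vehicle and at 33, 28.9 and 40.01 with DOX. PRSS2 showed the same order of libraries, with 186, 121 and 211 CPM against 55.0, 50.8 and 67.7. These genes are near-identical copies on chromosome 7, so the authors' counting could have split or shared their reads. REG1A, an acinar secreted protein, moved the other way, from 1.47, 1.11 and 2.15 CPM to 11.9, 9.23 and 5.74.

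MUC13, CD9 and EPN3 were leading lower genes too. MUC13, a second transmembrane mucin (chromosome 3, 124905442 to 124934751), was at 14.3, 12.9 and 13.3 CPM with vehicle and 4.10, 4.28 and 3.95 with DOX, which is 3.28-fold lower. CD9, a tetraspanin, went from 15.2, 17.8 and 18.1 CPM to 5.06, 3.8 and 4.76. EPN3, an epsin of clathrin-mediated endocytosis, went from 14.6, 15.2 and 13.5 CPM to 4.13, 4.44 and 3.42, and its exons share bases with the neighbouring SPATA20 on the same strand. In the list of mucins, MUC1, MUC13 and MUC3A were lower, MUC20 and MCAM (an older name is MUC18) did not pass, and none was higher. MUC3A was at 10.4 ± 1.07 CPM with vehicle and 4.37 ± 0.253 with DOX (mean ± SD, n = 3). Of 11 keratins tested, 0 passed the threshold in edgeR, the only tool for which list members were counted. KRT8 was at 452 ± 56.7 CPM against 383 ± 37.8 and KRT18 at 342 ± 28.4 against 320 ± 25.4 (n = 3 each). TSPAN8, a tetraspanin listed as a ductal marker, fell 2.07-fold from 1157, 1242 and 1420 CPM to 613, 567 and 663.

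The remaining leading lower genes have varied roles. IGFBP2, which binds insulin-like growth factors in the medium, was at 34.2, 27.1 and 24.98 CPM with vehicle and 9.72, 10.4 and 8.97 with DOX. ERP27, a disulfide isomerase-like protein of the endoplasmic reticulum, was at 26.5, 27.4 and 27.4 CPM against 9.43, 9.15 and 9.02. FAM241A, on chromosome 4 from 112145454 to 112195256, was 3.28-fold lower, at 61.3 ± 6.38 CPM against 18.7 ± 0.93 (n = 3). HIST1H4I (now H4C9), a histone H4 gene among many of near-identical sequence, was at 34.3, 40.6 and 31.0 CPM against 7.48, 11.2 and 11.7. RNR2, the RefSeq symbol of the mitochondrial 16S ribosomal RNA, was at 176, 193 and 171 CPM with vehicle. Its DOX values were uneven, at 14.4 and 18.5 CPM in DOX 1 and DOX 2 but 86.8 in DOX 3. The log2 fold change was −2.17 with all libraries. Leaving out 1 library at a time gave values from −3.46, without DOX 3, to −1.76. RNR1 did not pass and its groups overlap, at 27.8, 37.3 and 28.4 CPM with vehicle and 5.78, 9.66 and 30.2 with DOX.

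DACT1 had the largest rise among the leading genes. This gene encodes a Dishevelled-binding protein of WNT and TGF-beta signalling (chromosome 14, 58634061 to 58648321). It was at 9.15, 9.95 and 10.9 CPM with vehicle and 74.4, 65.6 and 65.9 with DOX, a 6.84-fold difference (log2 2.77 ± 0.10 standard error, adjusted p = 4.42e-10). SYTL5, a synaptotagmin-like protein that binds RAB27 on secretory vesicles, rose 4.62-fold from 12, 11.1 and 10 CPM to 54, 45.0 and 53.4. ADAMTS9, an extracellular metalloprotease, was at 11.9, 10.2 and 11.7 CPM against 44.5, 39.999 and 50.7. CEMIP, which takes part in hyaluronan breakdown, was at 14.4, 12.7 and 13.2 CPM against 44.0, 47.6 and 44.3. ADAMTS9, CEMIP and ANGPT2, described next, share exonic bases with genes on the opposite strand (ADAMTS9-AS1, MESD and MCPH1), and DACT1 shares them with LINC01500 on its own strand. Whether the counting used the strand is not given in the sources used here.

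Signalling receptors and ligands were also among the leading higher genes. RGS4, which shortens signalling by G-protein-coupled receptors, was at 372, 312 and 365 CPM with vehicle and 1062, 1133 and 1115 with DOX. GHR, the growth hormone receptor, was at 10.3, 10.2 and 9.06 CPM against 29.7, 31.4 and 30.3. DLL4, a NOTCH ligand, was at 14.5, 13.2 and 11.4 CPM against 35.1, 45.5 and 35.2. The TIE2 ligand ANGPT2 was at 7.21, 7.10 and 8.24 CPM with vehicle and 18.3, 21.9 and 22.1 with DOX. VAT1L, a homologue of a synaptic vesicle protein, was 3.71-fold higher, and the transcribed pseudogene KIR3DX1, which overlaps exons of another gene on the same strand, was 3.95-fold higher. For these 6 genes the narrowest gap between groups, relative to the level, was in ANGPT2, where the highest vehicle library was at 8.24 CPM and the lowest DOX library at 18.3.

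Several hormone genes rose. CGA, the alpha subunit shared by the glycoprotein hormones (chromosome 6, 87085498 to 87095106), was at 161, 170 and 145 CPM with vehicle and 762, 735 and 681 with DOX. It rose 4.58-fold (log2 2.19 ± 0.08 standard error, adjusted p = 4.42e-10). SST, on chromosome 3 from 187668912 to 187670394, was at 104, 115 and 85.0 CPM against 273, 280 and 279. GRP, the gastrin-releasing peptide, was at 7.47, 7.03 and 8.26 CPM against 26.1, 26.8 and 23.0. In all 3 genes each DOX library lay above each vehicle library by a wide margin. That the groups do not overlap was required by the rule that ranked these genes.

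Of 11 prohormone and peptide hormone genes tested, a list that does not hold CGA, 4 were higher, 1 was lower and 6 did not pass. The higher ones were GRP, SST, NTS and CALCA. NTS, the neurotensin gene, was at 483, 533 and 642 CPM against 1041, 1059 and 1260. CALCA, which gives calcitonin and a calcitonin gene-related peptide by alternative splicing, was at 4112, 3681 and 4103 CPM against 6625, 5659 and 6275. Its paralog CALCB, which gives the second calcitonin gene-related peptide, went down from 76.1, 74.6 and 94.6 CPM to 49.1, 40.6 and 47.1. GAL, the galanin gene, was at 30.2 ± 2.15 CPM against 28.4 ± 4.79 (n = 3) and did not pass. All 11 members stand in the 3 shortest of 10 equal bins of genes by transcript length, which as a whole were shifted down with DOX. With the trend of length removed, the list still had 4 members higher and 1 lower.

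The promoters of SST and CGA are textbook targets of the cAMP response element-binding protein CREB, which binds the 8-base cAMP response element TGACGTCA. They are shown because these genes are among those that rose most and because their elements can be read in them. The sequences are the 150 bases before the RefSeq start site (GRCh38.p14), all 3 read 5′ to 3′ on the minus strand, with the element in capitals. MUC13, which fell, is shown beside them because its window holds the element too.
SST, chr3:187670395-187670544: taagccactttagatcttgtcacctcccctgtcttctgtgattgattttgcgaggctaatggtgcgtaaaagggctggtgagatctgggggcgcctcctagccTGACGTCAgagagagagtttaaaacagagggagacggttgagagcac
CGA, chr6:87095107-87095256: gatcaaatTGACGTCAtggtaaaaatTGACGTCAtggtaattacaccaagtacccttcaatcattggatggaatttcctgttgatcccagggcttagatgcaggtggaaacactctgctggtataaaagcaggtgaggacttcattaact
MUC13, chr3:124934752-124934901: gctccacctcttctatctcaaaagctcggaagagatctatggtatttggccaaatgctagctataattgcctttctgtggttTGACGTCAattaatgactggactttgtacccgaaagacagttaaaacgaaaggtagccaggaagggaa
The element begins 47 bases before the start of SST, 142 and 124 bases before that of CGA, and 68 bases before that of MUC13. It was searched for after these genes' values were seen, on both strands of the windows from 250 bases before to 50 bases after each start. The palindrome stood in 2.25% of the 27305 genes with a window. It stood in 1 of the 9 leading higher genes with a window (CGA) and in 1 of the 9 leading lower ones (MUC13). The shorter core TGACGT, which every full element contains, stood in 9.64% of all genes, in 3 of the 9 leading higher genes (CGA, DACT1 and GRP) and in MUC13 among the lower. A match in letters is a description of the window and shows no binding, and it occurred in genes that moved in opposite directions.

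**Figure D2:**
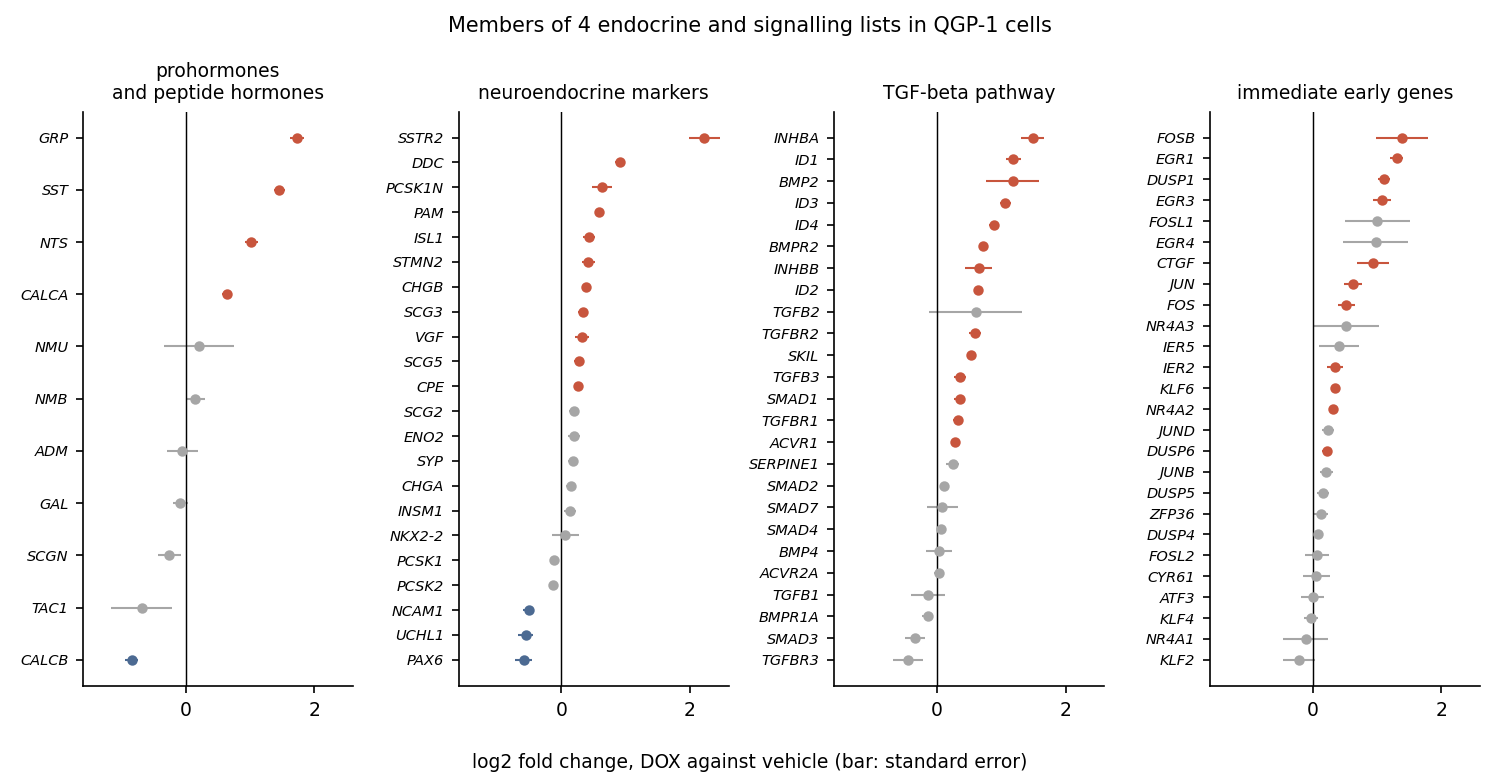
Log2 fold change, DOX against vehicle, with its standard error for the tested members of 4 gene lists in QGP-1 cells (1 neuroendocrine marker is not drawn), colored red or blue for members past the threshold and grey for the others. GRP, SST, NTS and CALCA lie to the right and CALCB to the left among the hormones, and no member of the TGF-beta or immediate early lists is blue.

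Neuroendocrine markers went up more often than down. Of 23 tested, 12 (52.2%) were higher and 3 were lower, against 17.3% and 17.7% over all genes. The median log2 fold change of the list, relative to that of all genes, was 0.27, and the list's median level in each library, relative to vehicle, was 0.29, 0.17 and 0.33 on the log2 scale in DOX 1, 2 and 3. SSTR2, the somatostatin receptor that clinical somatostatin analogs bind, was at 1.49, 0.972 and 1.65 CPM with vehicle and 8.19, 6.11 and 4.97 with DOX, which is 4.67-fold higher (adjusted p = 1.66e-05). DDC, which makes serotonin and dopamine from their precursors, rose from 46.5 ± 1.02 CPM to 87.4 ± 6.71. PAM, which amidates peptide hormones, rose from 1065 ± 55.1 CPM to 1600.2 ± 75.4 (n = 3 each). The granin gene CHGB rose by 0.39 on the log2 scale. The markers used most in pathology moved little. CHGA was at 148 ± 7.66 CPM against 163 ± 14.7 and SYP at 39.3 ± 1.98 against 44.5 ± 1.49 (n = 3), and neither passed. PAX6, an islet transcription factor, was lower at 8.86, 8.51 and 7.84 CPM against 5.24, 6.11 and 5.41. The cell adhesion gene NCAM1 and the neuronal hydrolase UCHL1 were lower too.

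Islet and endodermal transcription factors showed the same mixture. Of 16 endocrine lineage factors, 5 (31.25%) were higher, among them ISL1, MYT1 and ST18, and 2 (12.5%) were lower (PAX6 and LMX1B). Over all genes 17.3% were higher and 17.7% lower. ST18, a zinc finger factor of the MYT family, was at 184, 178 and 177 CPM with vehicle and 346, 367 and 363 with DOX. Among 13 endodermal and hepatic factors, 4 (30.8%), namely ONECUT2, PROX1, FOXA1 and KLF5, were higher and 1 (7.7%), the intestinal factor CDX2, was lower. ONECUT2 rose from 1365, 1409 and 1212 CPM to 2340, 2678 and 2497. CDX2 lost its call without vehicle 1, and KLF5 without vehicle 2, vehicle 3 or DOX 2.

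The machinery of secretion and of membrane excitability changed in both directions. In regulated exocytosis, 13 of 32 genes (40.6%) were higher and 7 (21.9%) were lower. The list's median was near that of all genes, at 0.11 relative to it and 0.0037 without DOX 1. Of the 32 genes, 18 are in the 3 longest length bins, and with the trend of length removed 10 were higher and 8 lower. SYT11, a synaptotagmin, was at 22.7, 21.6 and 21.9 CPM against 63.1, 54.0 and 56.6. The granule genes SYT5 and RAB3B were higher by 1.15 and 0.59 on the log2 scale. VAMP8, a SNARE protein of secretory and endosomal vesicles, was at 22.8, 26.5 and 34.5 CPM with vehicle and 19.9, 12.5 and 13.1 with DOX, so that its lowest vehicle library stood close to DOX 1. Of 29 voltage-gated and related ion channel genes, 10 were higher and 4 were lower. ABCC8 and KCNJ11, the subunits of the ATP-sensitive potassium channel of beta cells, were both higher. ABCC8 was at 66.3, 72.3 and 57.5 CPM against 96.8, 105 and 104. The potassium channel gene KCNN3 was lower at 3.73 ± 0.615 CPM against 1.79 ± 0.367 (n = 3). As many as 24 of these 29 channel genes are in the 3 longest length bins, which as a whole were shifted up with DOX, and with that trend removed 6 were higher and 5 lower.

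TGF-beta and BMP signalling genes rose more often than those of any other list of at least 20 tested members. Of 25 tested, 14 (56%) were higher and 0 were lower by edgeR, with a relative median of 0.36. The list's level in each DOX library, relative to vehicle, was 0.33, 0.34 and 0.36, whereas the vehicle libraries were between −0.02 and 0.01. Among ligands, INHBA, a subunit of activin, was at 2.81, 3.68 and 4.82 CPM against 11.3, 11.3 and 9.43. BMP2 was higher too, at 0.459 ± 0.118 CPM against 1.05 ± 0.123. Among receptors, BMPR2 rose from 179 ± 5.26 CPM to 293 ± 15.8 and TGFBR2 from 21.1 ± 0.683 to 31.8 ± 2.98 (n = 3 each). The ID genes, helix-loop-helix inhibitors known as direct targets of BMP signalling, rose as a set of 4. ID1 went from 21.6 ± 1.72 CPM to 49.2 ± 8.27, ID3 from 47.6 ± 3.57 to 99.1 ± 8.57, ID4 from 56.9 ± 3.09 to 105 ± 6.98 and ID2 from 1040.1 ± 59.1 to 1616 ± 70.0. The ligand TGFB1 and the transducer SMAD3 did not pass, at log2 fold changes of −0.14 and −0.34. With the trend of transcript length removed, 15 members were higher and 1 was lower.

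Immediate early genes, which cells switch on within minutes of a stimulus, were higher in 11 of 26 cases (42.3%) and lower in 0 by edgeR. EGR1, a zinc finger factor, was at 25.5, 20.9 and 20.1 CPM with vehicle and 54.7, 58.2 and 51.6 with DOX, a 2.47-fold difference. DUSP1, a phosphatase that turns off MAP kinases, rose from 17.0 ± 1.06 CPM to 36.8 ± 2.62, and EGR3 from 5.2 ± 0.805 to 11 ± 0.628 (n = 3 each). FOSB, FOS and JUN, subunits of AP-1, were higher by 1.39, 0.53 and 0.63 on the log2 scale. NR4A1 did not pass, at −0.11. The list's level was 0.32, 0.31 and 0.33 in the 3 DOX libraries relative to vehicle. In contrast to the trend of length, 11 of the 26 genes are in the 3 shortest length bins. The relative median was 0.35 with all libraries and 0.25 without vehicle 3.

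Several ligands and proteases of the NOTCH pathway rose, and no receptor was called higher. Of 28 genes, 9 (32.1%) were higher and 2 (NOTCH3 and DTX1) were lower. Without DOX 1, 6 were higher and 1 was lower. The ligands DLL4 and JAG1, the proteases ADAM10 and ADAM17 that cut NOTCH receptors, the coactivators MAML1, MAML2 and MAML3, and the targets HES1 and HEY1 were higher. ADAM10 went from 254 ± 13.2 CPM to 352 ± 10.8 and HES1 from 41.8 ± 2.23 to 50.1 ± 3.57 (n = 3 each). NOTCH3 was lower, at 4.88, 4.47 and 4.48 CPM against 2.30, 3.73 and 2.90, but lost its call when vehicle 1, vehicle 2, DOX 1 or DOX 3 was left out. NOTCH1 and NOTCH2 did not pass, at log2 fold changes of −0.49 and −0.23.

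Several genes of cell adhesion and of the mesenchymal state moved by large factors from low levels. FN1, the fibronectin gene, was at 0.944, 0.416 and 0.161 CPM with vehicle and 4.52, 5.40 and 2.70 with DOX, and its log2 fold change of 3.10 (standard error 0.44) is the largest of the members named from the lists. ZEB1, a repressor of epithelial genes, rose from 4.16 ± 1.04 CPM to 8.98 ± 0.372, and GRHL2, which maintains epithelial genes, fell from 43.6, 43.5 and 39.4 CPM to 31.0, 29.8 and 28.5. Of 16 genes in the epithelial-mesenchymal list, 5 (31.25%) were higher and 3 (18.75%) were lower, against 17.3% and 17.7% over all genes. The list's relative median of −0.11 is negative although more members rose. Integrin genes split. ITGA6, a laminin-binding subunit, was at 145, 135 and 143 CPM against 240, 252 and 259. ITGA5, the fibronectin-binding subunit, was at 3.65, 3.56 and 2.65 CPM against 1.33, 1.29 and 0.651. Among 24 junction genes 6 (25%) were higher and 6 (25%) were lower, with a relative median of 0.034. OCLN (occludin) was at 24.0 ± 1.18 CPM against 36.1 ± 3.71 and DSG2 (desmoglein) at 439 ± 17.0 against 273 ± 4.59 (n = 3).

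Receptor tyrosine kinases also divided evenly, with 7 of 31 (22.6%) higher and 7 lower, against 17.3% and 17.7% over all genes. Of the 31, 22 are in the 3 longest length bins, and with the trend of length removed 2 were higher and 8 lower. KIT, the stem cell factor receptor, was at 13.3, 13.6 and 13.7 CPM against 6.59, 7.20 and 6.11. EPHA4, an ephrin receptor, was at 88.6, 87.2 and 85.7 CPM against 167, 173 and 161. MET rose from 234 ± 1.84 CPM to 291 ± 5.63 (n = 3). Within each of these genes the groups lie apart.

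Genes for making histones, ribosomes and the respiratory chain were the most uniform of the lists with lower levels. Of 55 replication-dependent histone genes tested, 50 (90.9%) were lower and 0 were higher, against a background of 17.7% lower. The relative median was −0.74, and the list's level was −0.89, −0.69 and −0.72 in the DOX libraries relative to vehicle, with the vehicle libraries between −0.21 and 0.15. HIST1H4C fell from 127 ± 14.7 CPM to 50.3 ± 3.14 and HIST1H1E, a linker histone, from 285 ± 46.2 to 199 ± 8.66 (n = 3 each). Histone genes of one type are near-identical in their coding parts, so values of single members are uncertain. The messages of these genes end in a stem-loop in place of a poly(A) tail, and the libraries were made with a kit that selects poly(A) RNA. Among other RNAs without a poly(A) tail, RN7SK, RN7SL1, RN7SL2, RMRP and RPPH1 were lower with DOX. They made up 5.90, 6.56 and 7.11% of all counts with vehicle and 4.89, 3.65 and 3.59% with DOX. Of 157 small nucleolar and Cajal body RNA genes tested, 19 were lower and 2 were higher, a smaller share than the 17.7% lower over all genes. Their relative median was −0.21. All 568 genes of this class took 0.146, 0.144 and 0.180% of counts with vehicle and 0.0996, 0.114 and 0.0800% with DOX. The part of these RNAs in the result for histones was not tested.

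Of 78 cytosolic ribosomal protein genes, 72 (92.3%) were lower and 0 were higher. RPS18, of the small subunit, was at 974, 1073 and 1160 CPM with vehicle and 468, 447 and 519 with DOX, and RPS3 went from 399 ± 13.1 CPM to 194 ± 15.9 (n = 3). The 79 genes of this list in the table took 3.47% ± 0.119 of all counts with vehicle and 2.36% ± 0.083 with DOX (n = 3). These genes have many processed pseudogenes, and the treatment of reads with several matches is not given in the sources used here. The factors that build ribosomes did not follow. Of 34 ribosome biogenesis genes 12 (35.3%) were higher and 0 were lower, with POLR1A, the largest subunit of RNA polymerase I, at 118, 107 and 94.6 CPM against 161, 182 and 147 and NCL (nucleolin) at 574 ± 36.4 against 730 ± 65.9 (n = 3).

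Of 73 nuclear-encoded genes of the respiratory chain, 49 (67.1%) were lower and 0 were higher, with a relative median of −0.39. UQCRFS1, the Rieske subunit of complex III, fell from 93.0 ± 2.72 CPM to 41.6 ± 5.11 (n = 3), and COX7B of complex IV from 33.0, 42.0 and 41.5 CPM to 17.0, 14.1 and 20.8. Mitochondrial ribosomal protein genes were lower in 32 of 76 cases (42.1%) and higher in 0. MRPL42 was at 146, 146 and 167 CPM against 81.7, 87.8 and 90.2. Genes of the TCA cycle were lower in 9 of 26 cases and higher in 1, OGDH, whose call was lost without vehicle 2, vehicle 3, DOX 2 or DOX 3. Of 31 proteasome genes, 15 (48.4%) were lower and 1, PSMD12, was higher. PSMB5, the catalytic subunit that bortezomib binds, was at 56.9, 54.9 and 56.1 CPM against 23.3, 21.1 and 21.8, which is 2.54-fold lower.

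**Figure D3:**
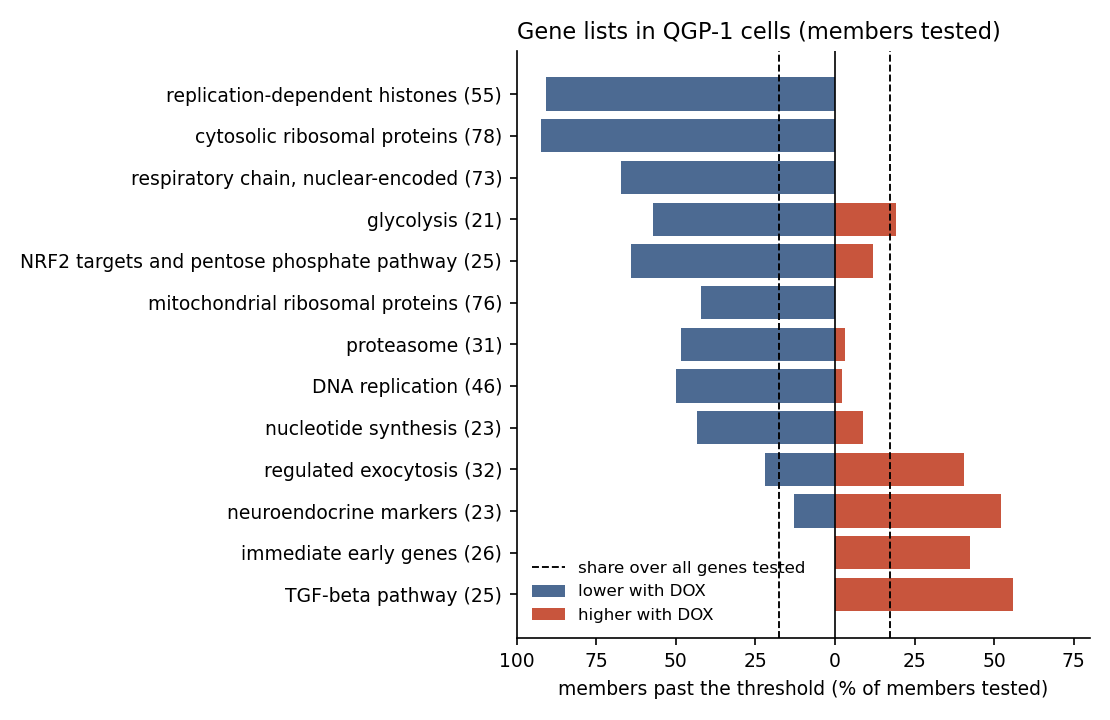
Share of the members tested that were lower (blue, to the left) or higher (red, to the right) with DOX, for the 13 lists with at least 20 members tested and at least 40% of them called in one direction, ordered by relative median. Dashed lines mark the shares over all genes, 17.7% lower and 17.3% higher, and 9 of the 13 lists extend mainly to the left.

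These lists consist mainly of short genes, and transcript length moved with the result. Relative length was taken from the ratio of deposited counts to TPM, which exists for 14874 genes. In the shortest of 10 equal bins of genes the median log2 fold change was −0.24, with 29.2% lower and 3.9% higher. In the longest bin the median was 0.20, with 9.07% lower and 41.9% higher. Between these ends the share of higher genes grew in every step. The gap between the longest and the shortest bin, as a median of log2 levels relative to vehicle, was 0.39, 0.53 and 0.36 in the DOX libraries, against −0.14 to 0.07 in the vehicle libraries. Of the members tested, all 55 histone, 65 of 78 ribosomal protein, 61 of 73 respiratory chain, 61 of 76 mitochondrial ribosomal and 24 of 31 proteasome genes are in the 3 shortest bins. When a smooth trend of length was taken out of each library, 15.4% of genes were lower and 15.6% higher. The counts then were 31 of 55 lower for histones, 43 of 78 for ribosomal proteins, 24 of 73 for the respiratory chain, 19 of 76 for mitochondrial ribosomal proteins and 7 of 31 for the proteasome. The members higher were 1, 2, 3, 6 and 2 in the same order. Their relative medians were −0.34, −0.31, −0.19, −0.13 and −0.057. The last, of the proteasome, is smaller in size than that list's SD between replicates, 0.081. What set the trend was not tested.

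**Figure D4:**
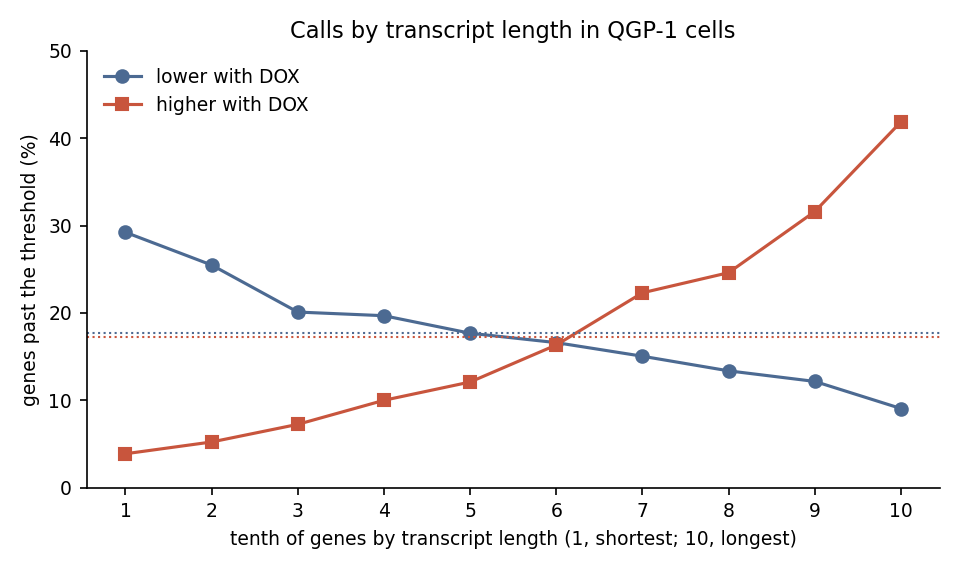
Share of genes lower (circles) and higher (squares) with DOX in QGP-1 cells in each of 10 equal bins of genes by transcript length, with dotted lines at the shares over all genes. The share lower falls from 29.2% in the shortest bin to 9.07% in the longest, while the share higher grows from 3.9% to 41.9%.

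Genes of central metabolism fell as well. In glycolysis, 12 of 21 genes (57.1%) were lower and 4 were higher, and the count of lower genes was again 12 with the length trend removed. PGAM1, phosphoglycerate mutase, was at 213, 223 and 221 CPM with vehicle and 108, 101 and 103 with DOX, a 2.1-fold difference (adjusted p = 1.28e-07). HK2, a hexokinase, fell from 65.2 ± 6.51 CPM to 36.5 ± 3.26 (n = 3). The glucose transporter SLC2A3 rose from 7.53, 8.56 and 7.68 CPM to 11.2, 11.9 and 11.8. Among 17 hypoxia response genes, 7 were lower and 0 were higher by edgeR. EGLN3, an oxygen-sensing prolyl hydroxylase, was at 17.0, 19.3 and 14.4 CPM against 6.61, 5.93 and 6.13, and P4HA1, a collagen prolyl hydroxylase, fell from 34.8 ± 0.435 CPM to 17.7 ± 2.65 (n = 3).

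Among 25 NRF2 target and pentose phosphate genes, 16 (64%) were lower and 3 (FTL, SLC7A11 and RPIA) were higher. The aldo-keto reductases AKR1C3, AKR1C2 and AKR1C1, which reduce steroids and carbonyls, fell by 1.5, 1.46 and 1.07 on the log2 scale, and AKR1C3 was at 145, 147 and 169 CPM against 48.9, 50.5 and 63.6. They are close paralogs that may share reads. SLC7A11, the cystine transporter, rose from 591, 577 and 609 CPM to 878, 869 and 874. In serine and one-carbon metabolism, 9 of 15 genes were lower and 4 were higher, with PHGDH, the entry enzyme of serine synthesis, at 56.6, 53.6 and 46.3 CPM against 26.9, 29.4 and 23.8. FDPS, which makes farnesyl diphosphate, was 2.05-fold lower. Of 23 cholesterol synthesis genes, 7 (30.4%) were lower and 6 (26.1%) higher, against 17.7% and 17.3% over all genes. That list's relative median was 0.024, and with the length trend removed 6 were lower and 3 higher.

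In DNA replication, 23 of 46 genes (50%) were lower and 1 was higher, ORC3. PRIM1, a primase subunit, was at 64.2, 70.8 and 71.2 CPM against 39.3, 39.999 and 44, and the helicase subunit MCM5 fell from 90.8 ± 6.12 CPM to 60.8 ± 2.03 (n = 3). Mitosis genes stood near the background, with 10 of 45 (22.2%) lower and 5 higher. HMMR, a spindle-associated protein, fell from 159, 168 and 182 CPM to 97.6, 94.0 and 97.4, whereas the kinetochore motor CENPE was at 26.0, 29.4 and 24.7 CPM against 41.9, 46.2 and 32.9. Of 25 p53 targets and CDK inhibitors 6 were lower and 5 were higher, with CDKN1C (p57) 2.39-fold lower and PLK2, a polo-like kinase, 1.86-fold higher. In the BCL2 family, the 4 genes called of 15 were higher by small factors. These were the survival genes BCL2 and MCL1 and the death genes BMF and BCL2L11, at log2 fold changes of 0.26, 0.33, 0.45 and 0.33, and BCL2 lost its call without vehicle 1, vehicle 2 or DOX 2.

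Among the other lists, 8 of 30 endoplasmic reticulum chaperone and stress-sensor genes were higher and 4 were lower. ERN1, the sensor IRE1, was at 180, 183 and 159 CPM against 297, 280 and 284, and HSPA5 (BiP) rose from 456 ± 28.2 CPM to 677 ± 69.4 (n = 3). ATF4 targets were near the background, with 5 of 18 lower and 2 higher, and DDIT4, an inhibitor of mTORC1, was at 14.3, 14.4 and 14.5 CPM against 4.83, 4.74 and 7.55. Interferon-stimulated genes had 3 lower and 6 higher of 27, antigen presentation 3 and 3 of 18, and NF-kB 1 and 3 of 16. Polycomb complexes had 2 and 6 of 27, BAF and PBAF complexes 0 and 4 of 24, and small nucleolar RNA host genes 2 and 1 of 19. Over all genes 17.7% were lower and 17.3% higher. The largest share in these 6 lists was 22.2%, higher, for interferon-stimulated genes and polycomb complexes.

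To see whether the leading genes behaved alike in the other line, they were read in BON-1 cells, where edgeR called 18.3% of genes lower and 17% higher. Of the 24 genes, 20 were tested there and 10 were called in the same direction, 3 in the opposite one. An interaction term of line and DOX in edgeR tested whether the change differed, and it passed for 16.7% of genes overall. It passed for 17 of the 21 leading genes with enough counts in BON-1 cells, and since these were chosen for large changes in QGP-1 cells, larger changes there are partly set by the choice. FAM241A was nearly the same in both lines, at 59.7 ± 3.83 CPM with vehicle and 18.8 ± 1.22 with DOX in BON-1 cells, and the lines differed by −0.05 on the log2 scale (standard error 0.14, adjusted p = 0.851). ASS1 was low in BON-1 cells, at 3.44 ± 0.388 CPM, and fell to 0.732 ± 0.222. CEMIP rose there from 251 ± 21.4 CPM to 656 ± 16.1 (n = 3 each).

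Opposite changes were seen in RGS4, MUC13 and RNR2. RGS4, which rose in QGP-1 cells, fell in BON-1 cells from 48.9 ± 2.54 CPM to 28.6 ± 1.22 (difference 2.42, adjusted p = 1.37e-12). MUC13 rose slightly there, from 192 ± 3.68 CPM to 235 ± 13.5, a log2 fold change of 0.29. RNR2 rose from 17.6 ± 6.70 CPM to 37.2 ± 4.38. CD9, ERP27, SYTL5 and DLL4 did not pass in BON-1 cells, at log2 fold changes of −0.07, 0.14, 0.12 and 0.18. CGA was at 1.18 ± 0.139 CPM in BON-1 cells and 2.41 ± 0.832 with DOX, and VAT1L had no count in any BON-1 library. In these bulk libraries, fewer cells with a transcript and less of it per cell cannot be told apart.

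**Figure D5:**
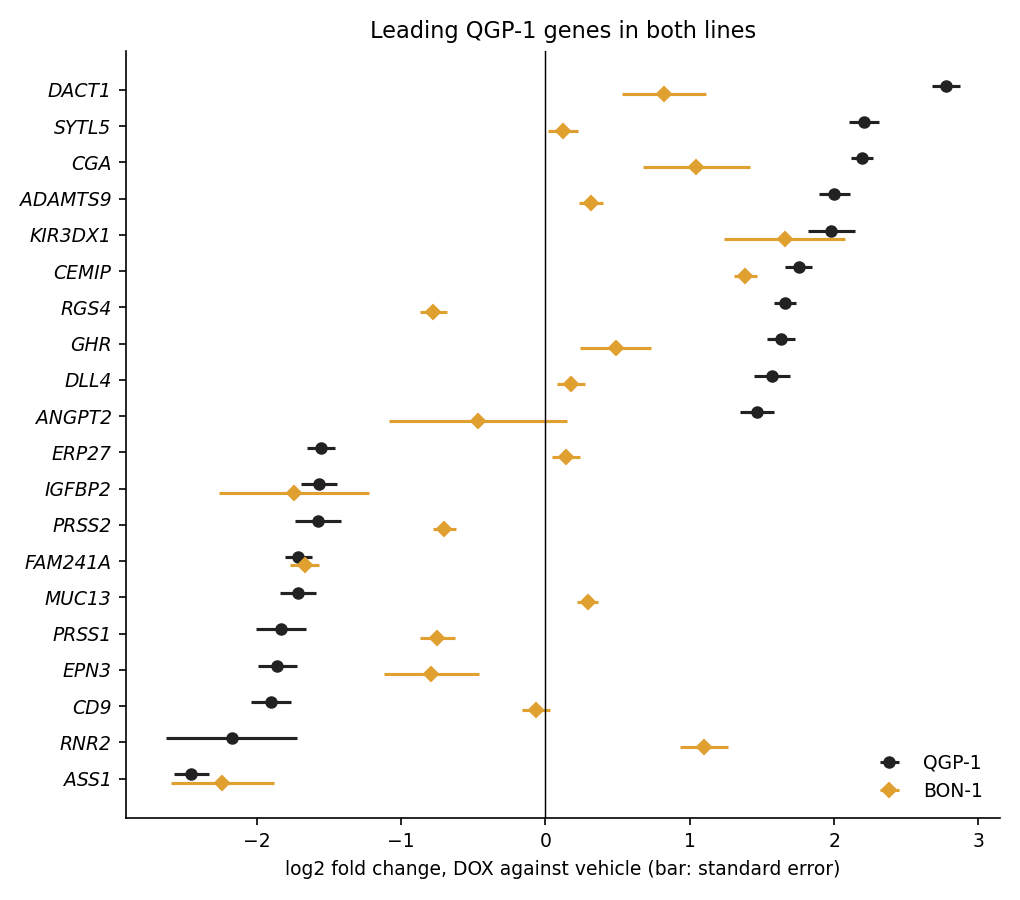
Log2 fold change, DOX against vehicle, with its standard error for the 20 leading QGP-1 genes that could be tested in BON-1 cells (circles, QGP-1; diamonds, BON-1). ASS1, FAM241A, IGFBP2 and KIR3DX1 lie close together in both lines, while RNR2, MUC13 and RGS4 lie on opposite sides of 0. In BON-1 cells IGFBP2 and KIR3DX1 rest on few counts, with vehicle means of 1.59 and 0.763 CPM and standard errors of 0.52 and 0.42.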

How the data were processed

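The authors sequenced RNA of 3 vehicle and 3 DOX cultures of QGP-1/tet-MUC1shRNA cells. They prepared libraries with a TruSeq Stranded mRNA kit and aligned the reads with STAR to GRCh38. They deposited raw counts per gene, without normalization, and TPM values, for which the authors corrected counts for gene length and brought libraries to a common sum. The submitters' processing notes also name DESeq2. The counter, its strand setting and the STAR version are not given in the sources used here. Columns were matched to libraries by the labels, and 0 were left unused.

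Tests on counts used edgeR 4.0.16 under R 4.3.3 (default low-count filter, TMM, quasi-likelihood fit, Benjamini-Hochberg adjustment over 15089 genes, threshold 0.05). The standard error is the log2 fold change divided by the root of F. TPM served for relative gene lengths and, as log2(TPM + 1), for an alternative in limma 3.58.1. The difference between the lines was an interaction term over 12 libraries and 16598 genes, read only for genes with at least 10 counts in each BON-1 group. The QGP-1 libraries held 38224144 to 50525926 counts, and genes near 1 CPM are limited by counting error. Replicate pairs differed by more than sampling noise (chi-square per gene 8.48 to 29.7). The cultures were called biologic triplicates. An exact permutation test of 3 against 3 libraries cannot give a two-sided p below 0.1.

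The 52 gene lists, of which those with few tested members are given only where named, and the 24 leading genes were chosen with earlier results of these data known. Genes named are MUC1, the leading genes, the called members with the most negative and most positive change in each list (mean log2 CPM of at least 1), and all called members of lists with at most 5. A few genes are not reported here. Further members were named after their values were seen, as were the promoter motif and the RNAs without a poly(A) tail. A relative median is the median of a list minus that of all genes (−0.01). Alternatives were DESeq2 1.42.0, library size, other filters, the replicate number as a block, leaving out each library, a minimum log2 fold change of 1, TPM and, added after seeing the data, centred TPM and removal of a lowess trend of length (span 0.3). Scripts were tested on simulated counts. Positions and promoter windows come from RefSeq (GRCh38.p14), and overlaps from GENCODE.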

Additional observations from a re-analysis of the deposited data

Results flagged for a closer look

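Of the 21 leading genes for which the difference between the lines could be tested, 17 changed differently in QGP-1 and BON-1 cells by the interaction term of edgeR. The values are log2 fold changes in QGP-1 minus those in BON-1 cells. Among lower genes the difference was −2.82 for TMPRSS11E, −3.29 for RNR2, −1.85 for CD9, −1.05 for EPN3, −1.10 for PRSS1, −2.02 for MUC13, −0.88 for PRSS2 and −1.71 for ERP27. TMPRSS11E was at 0.413 ± 0.136 CPM with vehicle and 0.499 ± 0.337 with DOX (n = 3) in BON-1 cells, under the filter of the fit of that line alone. Among higher genes it was 1.96 for ANGPT2, 1.38 for DLL4, 1.13 for GHR, 2.42 for RGS4, 0.36 for CEMIP, 1.68 for ADAMTS9, 1.11 for CGA, 2.07 for SYTL5 and 1.95 for DACT1. The smallest of these, CEMIP, lost its call without vehicle 2, vehicle 3 or DOX 2 of QGP-1 or vehicle 1 of BON-1 cells. EPN3 lost its call without vehicle 2 or DOX 3 of QGP-1 or vehicle 2, vehicle 3 or DOX 1 of BON-1 cells, and ANGPT2 without vehicle 1 of BON-1 cells. Groups of 3 libraries were not searched for single outlying values.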

How the results depend on the processing

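The counts of genes ran from 1996 to 2614 lower and from 1975 to 2644 higher when 1 library was left out. With a minimum log2 fold change of 1 they were 360 and 183, and on uncentred log2(TPM + 1) in limma 91 and 9166, where the median of all genes moved by 0.59. The replicate numbers did not pair the libraries (correlations of their deviations −0.02, 0.05 and 0.04). With the number as a block the counts were 2738 and 2749, and of 128 named calls 1, NKD2, was lost.

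Relative medians of lists moved as follows. With the length trend removed they were −0.34 for histones, −0.31 for cytosolic ribosomal proteins, −0.19 for the respiratory chain, −0.057 for the proteasome and −0.28 for glycolysis. On TPM, centred or not, they were −0.40 for cytosolic ribosomal proteins, −0.27 for the respiratory chain, −0.079 for the proteasome, −0.12 for DNA replication, −0.26 for glycolysis and −0.21 for NRF2 targets. Glycolysis was at −0.39 with DESeq2 and −0.39 without a filter. Leaving out 1 library gave −0.40 to −0.30 for glycolysis, 0.25 to 0.36 for immediate early genes and 0.0037 to 0.14 for regulated exocytosis. Among lists whose relative median exceeded 1 SD of the replicates, signs turned for acinar markers (0.75 with DESeq2, 1.21 without a filter), the epithelial-mesenchymal list (0.12 and 0.12 in the same order) and, on TPM, for fatty acid synthesis (0.045), receptor tyrosine kinases (0.056) and mTOR genes (0.0037). Lists nearer 0 than that also changed sign under some settings, among them p53 targets (−0.078), cholesterol synthesis (−0.021), lysosome genes (0.026) and junctions (−0.010) with the length trend removed and NF-kB targets (0.10) without DOX 1.

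On uncentred TPM 14 named lower genes turned positive, namely SPP1 0.36, ERAP2 0.063, SCD5 0.18, MDH1 0.19, DNAJC10 0.26, NME1 0.17, TFF3 0.39, DSG2 0.051, GRHL2 0.18, DKK3 0.066, GAS5 0.32, ZFAS1 0.29, TUBA4A 0.25 and PCGF1 0.24. Of 1747 alternative values of named genes 1666 kept their sign and call and 67 lost the call, among them those of ACACA, OGDH, TFF3, BCL2, GAS5, ZFAS1, PCGF1 and PBRM1 with the length trend removed. Differences between the lines that had not passed spanned 0 when 1 library was left out, from −0.37 to 0.022 for ASS1, −0.11 to 0.033 for FAM241A, −0.12 to 1.22 for IGFBP2 and −0.041 to 0.54 for KIR3DX1, and FAM241A was at 0.016 by library size. The cause of these moves was not tested. Genes near 1 CPM, such as BMP2 and FOSB, rest on few counts.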

Other observations

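Further gene lists were counted in QGP-1 cells, to be read against 17.7% of all genes lower and 17.3% higher. Nucleotide synthesis genes were lower in 10 of 23 cases and higher in 2. NME1, a nucleoside diphosphate kinase, went from 84.1, 102 and 109 CPM to 71.8, 57.2 and 70.8, and PPAT, which opens purine synthesis, rose from 139, 139 and 149 CPM to 190, 205 and 198. With the length trend removed the counts were 4 and 3. Amino acid transporters were higher in 7 of 20 cases and lower in 3, and 12 of the 20 lie in the 3 longest length bins. With the length trend removed 4 were higher and 2 lower. Among 20 cytosolic aminoacyl-tRNA synthetases, 4 were lower and 2 higher, near the shares over all genes, and DARS, of aspartate, fell from 115, 112 and 117 CPM to 60.4, 56.5 and 56.2.

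Lysosome and autophagy genes were lower in 11 of 41 cases and higher in 5. With the length trend removed 9 were lower and 7 higher. CTSH, a cathepsin, was at 6.11, 6.06 and 4.86 CPM against 1.76, 1.95 and 1.51, and the autophagy receptor SQSTM1 rose from 196 ± 10.7 CPM to 257 ± 9.34 (n = 3). Tubulin genes were lower in 6 of 16 cases and higher in 2, and 10 of the 16 lie in the 3 shortest length bins. Fatty acid synthesis genes were lower in 5 and higher in 1 of 18, and mTOR complex and effector genes in 7 and 4 of 30. With the length trend removed, 3 were lower and 4 higher for tubulins, 6 and 1 for fatty acid synthesis and 8 and 5 for mTOR genes. Of 17 WNT feedback targets 2 were lower and 3 higher, again near those shares, with APCDD1, an inhibitor of WNT signalling, at 7.84, 6.25 and 6.81 CPM against 16.4, 15.4 and 10.8. TFF1, a secreted trefoil peptide, fell from 29.8, 24.0 and 26.7 CPM to 12.2, 10.4 and 10.8. In the integrin, laminin and collagen list 8 of 26 were lower and 6 higher.

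Among genes listed for cells that the cultures should lack, LYZ, the lysozyme gene of the leukocyte list, rose from 9.97, 11.6 and 11.47 CPM to 19, 15.6 and 16.7, while PTPRC and CD3E each had 9 or fewer counts in any library. FAP of the fibroblast list was at 0.918 ± 0.082 CPM against 0.141 ± 0.113 and COL1A1 at 2.49 ± 0.734 against 1.11 ± 0.139 (n = 3), and COL1A1 lost its call without vehicle 2.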
